A study of Mus musculus with 6 samples.

Results

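Interleukin-1 cytokines, their receptors and the inflammasome that processes them were examined in whole bone marrow as a set of 9 genes: Il1a, Il1b, Il18, Il1rn, Il1r1, Il1rap, Il1r2, Nlrp3 and Casp1. They were taken by gene symbol from the 18193 genes that had a probe set of their own on the array, and every probe set annotated to exactly 1 of these symbols was kept, giving 16 of 45037 probe sets. The genes were chosen from earlier results of the same comparison, in which Il1r2 and Il1b were among the genes higher with treatment, so their differences below are a description with no test of their own. Total RNA came from whole marrow of 3 mice given NOX-A12 and of 3 untreated mice, all of the SCID/Bg strain, with each mouse on its own Affymetrix Mouse Genome 430 2.0 array. SCID/Bg mice lack mature T and B lymphocytes and have impaired natural killer cells, so both groups were studied without a normal lymphoid compartment. NOX-A12 is an aptamer built from mirror-image RNA and directed at CXCL12, the chemokine that holds blood-forming cells in the marrow through CXCR4. The labels give neither its dose nor its schedule, nor the age of the mice, and describe no vehicle for the untreated mice.

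Interleukin-1 alpha and beta are agonists of one receptor, IL1R1, which signals only after it recruits the accessory protein encoded by Il1rap. Signalling is held back in 2 ways: the antagonist encoded by Il1rn occupies IL1R1 without recruiting the accessory protein, and the decoy receptor encoded by Il1r2 binds interleukin-1 but has no signalling domain. Interleukin-1 beta and interleukin-18 are made as inactive precursors and are cut by caspase-1, which is activated on inflammasomes such as the one built by NLRP3. In marrow, neutrophils and monocytes are known sources of Il1b and Il1r2, while stromal and endothelial cells carry Il1r1 and respond to interleukin-1 by making growth factors for myeloid cells.

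Sequences before a transcript start are shown for the brightest agonist gene and for the decoy receptor gene. These genes were taken because they carry the 2 largest positive differences among the brightest probe sets of the set. Each is the 250 bases before an annotated transcript start, from RefSeq on GRCm38.p6, written 5′ to 3′ on the gene's strand, with motif matches in capitals. The Il1r2 window is chr1:40085843-40086092 on the plus strand, and the Il1b window is chr2:129371140-129371389 on the minus strand. The Il1r2 window lies inside the annotated span of its gene, which begins farther upstream. The Il1b window overlaps the first bases of the annotated span of its gene.
Il1r2: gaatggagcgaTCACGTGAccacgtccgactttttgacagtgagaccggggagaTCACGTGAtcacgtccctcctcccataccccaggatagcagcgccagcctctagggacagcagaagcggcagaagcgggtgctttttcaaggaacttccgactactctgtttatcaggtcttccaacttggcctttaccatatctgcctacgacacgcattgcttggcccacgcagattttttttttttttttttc
Il1b: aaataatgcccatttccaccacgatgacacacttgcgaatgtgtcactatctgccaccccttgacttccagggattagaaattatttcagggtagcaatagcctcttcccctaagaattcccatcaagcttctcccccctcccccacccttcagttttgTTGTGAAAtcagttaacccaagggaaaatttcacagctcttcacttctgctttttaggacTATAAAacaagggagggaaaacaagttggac

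Motifs were searched on both strands, and matches could overlap. The Il1b window held a TATA match (TATAAA) beginning 31 bases before the start and a C/EBP match (TTNNGNAA) beginning 91 bases before it. Among all 32851 windows of the same length, 12.4% held the TATA letters and 36.8% the C/EBP letters. Of the 13 windows of the 9 genes, 8 held the C/EBP letters, in windows of Il1a, Il1b, Il1r1, Il1rn and Nlrp3. Overlapping windows of Il1rn, 2 in number, share a C/EBP match, so these 8 windows are not all separate. The TATA letters were held by 3 windows, for Il18, Il1a and Il1b. The Il1r2 window held the E-box palindrome TCACGTGA at 2 places, beginning 239 and 196 bases before the start, where 0.785% of all windows held it at least once; this motif was added after the sequence had been seen. All 9 genes had a window, and there were 13 windows because Il1rn, Il1r1 and Nlrp3 had windows for several starts. An NF-kB match (GGGNNTTCC) was found in 3 of the 13 windows, for Il1r1 and Nlrp3, against 4.98% of all windows. An AP-1 match (TGANTCA) was found in 2 of the 13, for Il1a and Il1rn, against 6.75%. A PU.1 match (GAGGAA) was found in 3 of the 13, for Casp1, Il1a and Nlrp3, against 23.3% of all windows. A heat shock element (GAANNTTC) was found in 1 of the 13, for Il1r1, against 6.69%. These are letters in a sequence and do not show binding.

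The arrays had median intensities from 44.8 to 45.6. Untreated mouse 3 stood apart, correlating with the other arrays at r from 0.982 to 0.985 across probe sets, against 0.991 to 0.994 among the rest, so differences are also given without it. All 12 measured mature neutrophil genes, 5 of 6 erythroid genes and 6 of 7 T and natural killer genes were at or above the median brightness of the array. The exceptions were the globin gene Hba-a1 and the T-cell gene Cd3e, whose means lay under 16, the offset added before taking logarithms. Each was read from 1 probe set, and probe sets with several symbols were left out. A dim value there does not show that the transcript was scarce. Cd3d, a subunit gene of the same T-cell receptor complex as Cd3e, was bright in these mice, at 1895, 1893 and 1650 in NOX-A12 marrow, against 1105, 1513 and 1340 in untreated marrow. Its groups did not overlap (0.46 ± 0.14, SE), while the other 6 genes of that list were negative. All differences are NOX-A12 minus untreated in mean log2(intensity + 16), a scale that understates changes of dim probe sets, with the standard error (SE) of the limma fit over the whole array. Precision is limited by the small number of arrays. With limma and Benjamini-Hochberg adjustment, 0 of the 16 probe sets passed an adjusted p of 0.05, against 0% of all 45037, and the smallest adjusted p on the array was 0.79. An unadjusted limma p under 0.05 was reached by 3 of the 16, against 4.97% of all probe sets. The groups did not overlap at 4 of the 16, against 9.85% of all. Of these, 2 were higher with NOX-A12, against 4% of all, and 2 were lower, against 5.85% of all. Because earlier results of this contrast guided the choice of genes, nothing is read from these counts. Over the brightest probe set of each of the 9 genes, 4 differences were positive and 5 negative, with a median of -0.06, beside a median of -0.01 over the brightest probe sets of all genes.

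**Figure D1:**
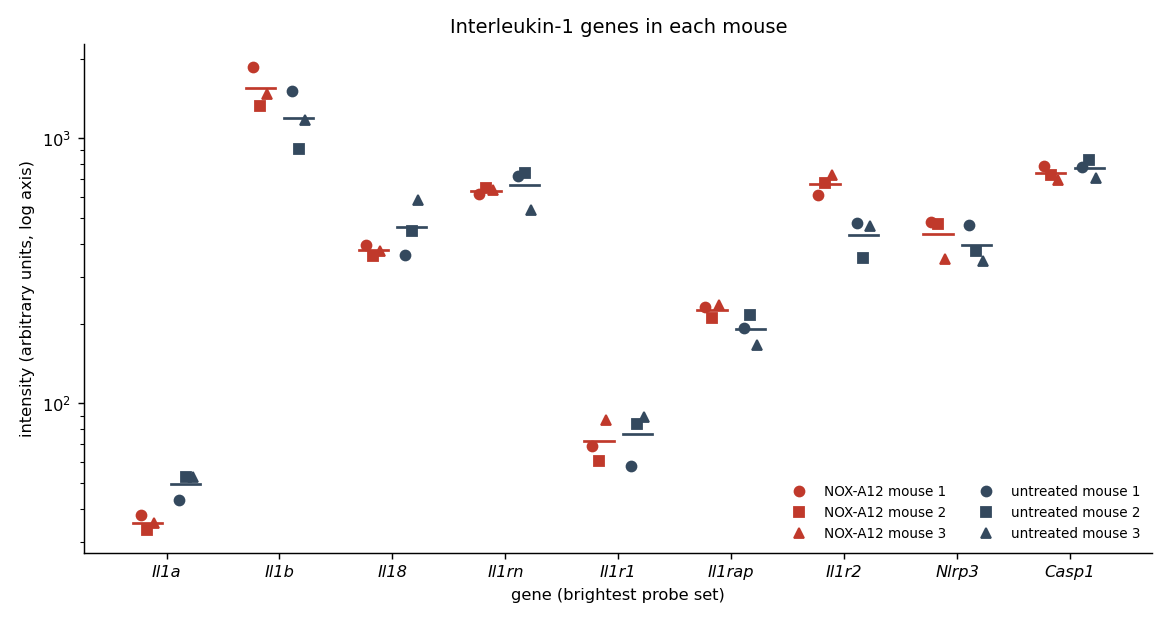
Intensity (log axis) of the brightest probe set of each gene in the 3 NOX-A12 mice (red) and the 3 untreated mice (dark), with bars at the group means and one marker shape per mouse number. Il1r2 is higher, and Il1a lower, in every NOX-A12 mouse than in every untreated mouse, while the groups of the other genes overlap; heights are not comparable between genes.

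Among the agonists, Il1b and Il1a stood on opposite sides of zero. Il1b, the secreted agonist of activated myeloid cells, had intensities of 1856, 1319 and 1468 in NOX-A12 marrow, against 1509, 914 and 1171 in untreated marrow. The 2 lowest values belonged to untreated mice 2 and 3, but untreated mouse 1 lay above NOX-A12 mice 2 and 3, so the groups overlapped. Il1b averaged 1548 ± 277 in NOX-A12 and 1198 ± 298 in untreated marrow (SD, n = 3 each), a log2 difference of 0.38 ± 0.20 (SE). That difference was 0.38 without untreated mouse 3, and lay between 0.20 without untreated mouse 2 and 0.56 without untreated mouse 1. In bulk marrow, a change in the number of cells of a type and a change in RNA per cell cannot be told apart. This holds for Il1b and for all other genes here.

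Il1a, the agonist that acts without caspase-1 cleavage, was dim, at intensities of 37.9, 33.4 and 35.3 in NOX-A12 marrow, against 43.3, 53.0 and 52.8 in untreated marrow. Every NOX-A12 mouse lay below every untreated mouse. The means were 35.5 ± 2.26 in NOX-A12 and 49.7 ± 5.52 in untreated marrow (SD, n = 3 each), and the log2 difference was -0.35 ± 0.10 (SE). Its size depended on the offset, at -0.47 with an offset of 1 and -0.19 with an offset of 64, and its mean intensity lay just under the median of all probe sets. It ranged from -0.42 to -0.31 with each mouse left out, and was -0.31 without untreated mouse 3.

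Il18, the precursor of a cytokine that drives interferon gamma production, had intensities of 396, 361 and 376 in NOX-A12 marrow, against 362, 446 and 585 in untreated marrow. The NOX-A12 mice lay close together, and the spread was in the untreated group, where mouse 3 was highest and mouse 1 lay among the NOX-A12 mice. Il18 averaged 378 ± 17.2 in NOX-A12 and 464 ± 113 in untreated marrow (SD, n = 3 each). The log2 difference of -0.26 ± 0.17 (SE) was -0.09 without untreated mouse 3 and -0.42 without untreated mouse 1.

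Il1r2, the decoy receptor gene, had the largest difference of the set. Its intensities were 614, 676 and 724 in NOX-A12 marrow, against 480.3, 353 and 465 in untreated marrow. The lowest NOX-A12 mouse stood above the highest untreated mouse. The means were 671 ± 55.4 in NOX-A12 and 433 ± 69.3 in untreated marrow (SD, n = 3 each), a ratio of 1.55 and a log2 difference of 0.62 ± 0.14 (SE). It was 0.68 without untreated mouse 3, and ranged from 0.49 without untreated mouse 2 to 0.70 without untreated mouse 1.

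Il1r1, the signalling receptor gene and the next protein-coding gene after Il1r2 on chromosome 1 in the RefSeq annotation, did not show that separation. Its brighter probe set, 1448950_at, gave 68.8, 60.6 and 86.7 in NOX-A12 marrow, against 58.0, 83.4 and 89.0 in untreated marrow. The groups overlapped, with the lowest and the highest value both in untreated mice, and the log2 difference was -0.07 ± 0.17 (SE), or 0.03 without untreated mouse 3. The other probe set, 1459777_at, was near background, at 3.94, 2.09 and 4.76 in NOX-A12 against 7.66, 15.5 and 7.36 in untreated marrow. All 3 NOX-A12 values were lower there, with a difference of -0.41 ± 0.14 (SE), and the brighter probe set of the gene did not share it.

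Il1rap, which encodes the accessory protein needed by IL1R1, had 5 probe sets. The brightest, 1421844_at, gave 231, 210 and 236 in NOX-A12 marrow, against 192, 216 and 166 in untreated marrow. Only untreated mouse 2 lay within the NOX-A12 range, and the log2 difference was 0.23 ± 0.12 (SE). At 1421843_at the NOX-A12 values were 56.8, 53.5 and 58.6, against 52.6, 50.2 and 32.2 in untreated marrow, without overlap and with a difference of 0.26 ± 0.15 (SE). The gap between the groups there was small, and without untreated mouse 3, the lowest, the differences at these 2 probe sets were 0.10 for 1421843_at and 0.14 for 1421844_at. One more probe set above median brightness, 1449585_at, gave 0.13 ± 0.10 (SE). The other 2 were near background, with means of 4.04 and 2.80 in NOX-A12 against 5.84 and 5.13 in untreated marrow, and gave -0.12 and -0.16. The 3 brighter probe sets of Il1rap were thus positive and the 2 dimmest negative, and the mean over all 5 was 0.07.

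**Figure D2:**
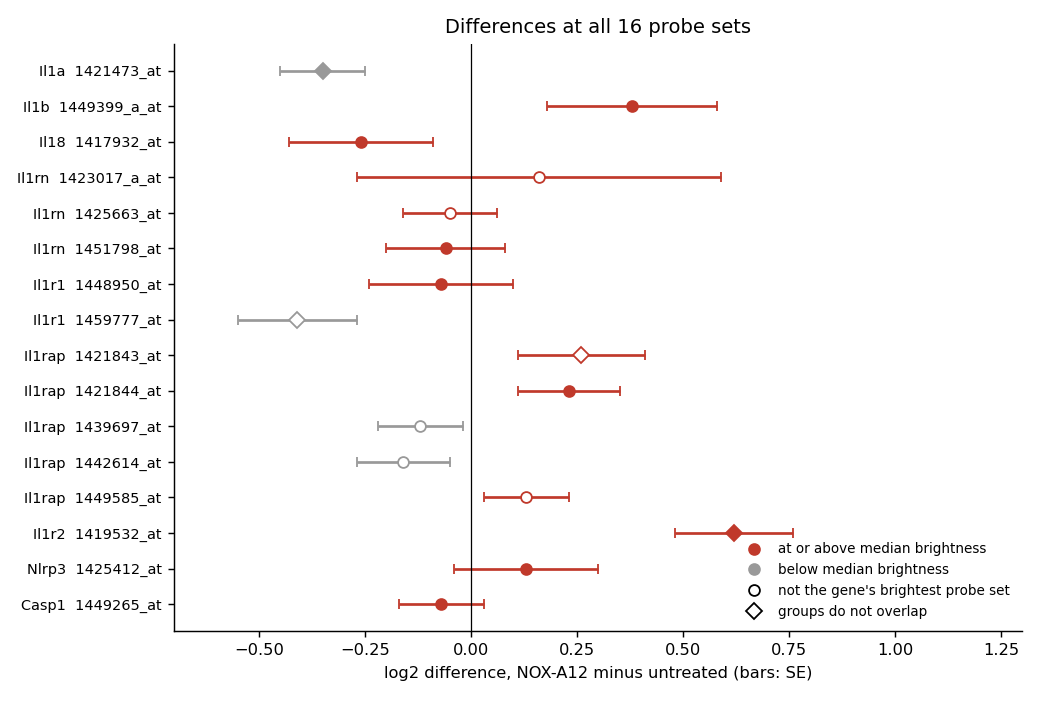
Log2 difference (NOX-A12 minus untreated, horizontal axis) at each of the 16 probe sets, with SE bars; red marks probe sets at or above the median brightness of the array, grey those below it, open symbols a probe set that is not the brightest of its gene, and diamonds groups that do not overlap. Il1r2 lies farthest to the right at 0.62, and the dim Il1r1 probe set farthest to the left at -0.41.

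Il1rn, which encodes the receptor antagonist, gave differences near zero at its brightest probe set. At 1451798_at the intensities were 615, 649.8 and 639 in NOX-A12 marrow, against 722, 741 and 537 in untreated marrow. The NOX-A12 mice fell between the untreated ones, with a log2 difference of -0.06 ± 0.14 (SE), or -0.20 without untreated mouse 3. At 1425663_at the difference was -0.05 ± 0.11 (SE). The probe set 1423017_a_at gave 92.7, 134 and 96.0 in NOX-A12 marrow, against 162, 125 and 35.6 in untreated marrow, and 0.16 ± 0.43 (SE). Its low value in untreated mouse 3 set that sign, and without this mouse the difference was -0.37.

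The inflammasome genes differed by less than their errors. Nlrp3, the sensor gene, had intensities of 485, 474 and 351 in NOX-A12 marrow, against 469.9, 375 and 345 in untreated marrow. Both groups spanned about the same range, with a difference of 0.13 ± 0.17 (SE), which was 0.04 without untreated mouse 3 and 0.28 without NOX-A12 mouse 3. Casp1, the protease gene, gave 786, 729.7 and 697 in NOX-A12 marrow, against 781, 832 and 709 in untreated marrow. Its groups overlapped, with a difference of -0.07 ± 0.10 (SE), or -0.13 without untreated mouse 3. The SD over 3 mice was 0.25 for Nlrp3 and 0.09 for Casp1 in NOX-A12 marrow, and 0.22 for Nlrp3 and 0.11 for Casp1 in untreated marrow, on the log2 scale.

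**Figure D3:**
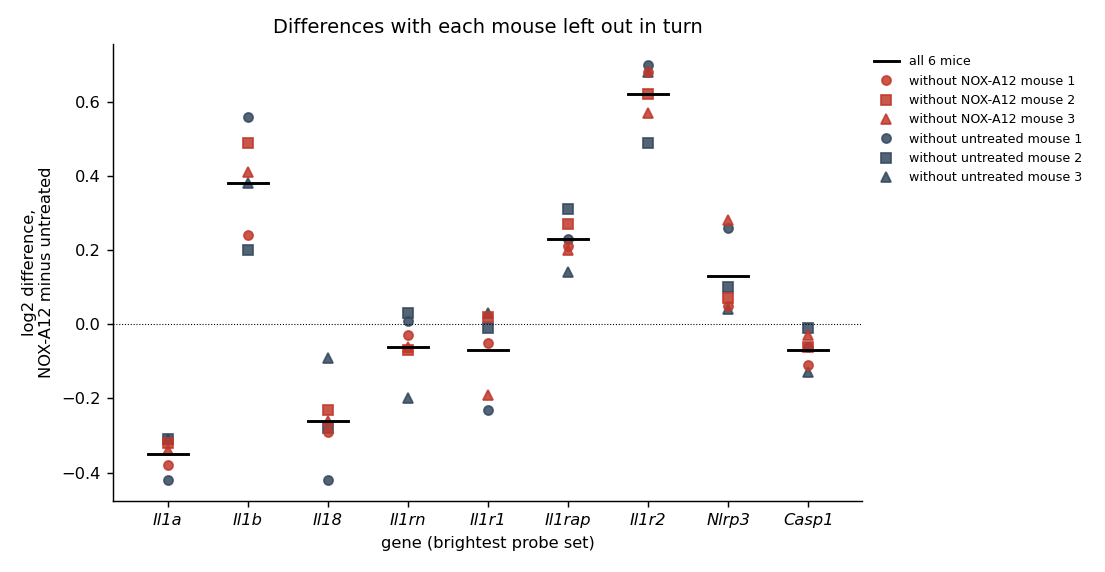
Log2 difference of the brightest probe set of each gene with all 6 mice (black line) and with each mouse left out in turn (red without a NOX-A12 mouse, dark without an untreated mouse, marker shape by mouse number). Il1r2 stays between 0.49 and 0.70 and Il1a between -0.42 and -0.31, while Il1rn and Il1r1 take both signs.

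Markers of the cells that can hold these transcripts were set beside them. Of 12 measured mature neutrophil genes, 8 were higher and 4 lower, with a median difference of 0.06, or -0.05 without untreated mouse 3. Their summed intensity ran from 84357 to 88601 in NOX-A12 and from 81193 to 88290 in untreated marrow, and none of the 12 was near background. S100a8, S100a9, Ngp and Camp held 60.9% to 67.5% of that sum, and S100a8 was at 16433 or more on every array and held the highest intensity of all, 16790. A sum made largely of such bright probe sets cannot show whether neutrophil content was alike. Of the other 8 genes, 7 were higher and 1 lower, with a median of 0.12, or -0.05 without untreated mouse 3. Some less abundant neutrophil genes varied more. Cxcr2, a chemokine receptor of mature neutrophils, gave 1356, 1692 and 1029 in NOX-A12 marrow, against 1594, 1269 and 483 in untreated marrow. Its difference was 0.42 ± 0.42 (SE), or -0.09 without untreated mouse 3. The groups of 2 neutrophil genes did not overlap, Clec4d higher and Ngp lower, against 10.6% of all genes. Clec4d gave 0.48 ± 0.16 (SE), or 0.43 without untreated mouse 3, and Ngp gave -0.05 ± 0.08 (SE). Of 11 monocyte genes, 8 were higher, with a median of 0.31, and their summed intensity ran from 17465 to 20734 in NOX-A12 and from 12833 to 17477 in untreated marrow. The monocyte median was 0.06 without untreated mouse 3. Cd14, a co-receptor for lipopolysaccharide, was the member of that list farthest from zero at 2.11 ± 0.23 (SE). Next was Vcan, a matrix proteoglycan gene below median brightness, at 1.34 ± 0.14 (SE). Its intensities were 60.7, 79.8 and 56.3 in NOX-A12 marrow, against 18.2, 17.8 and 12.4 in untreated marrow, close to the offset of 16. Cd14 and Vcan were then left out, a choice made after seeing the data. The mean centred log2 level of the other 9 was 0.07, 0.20 and 0.01 in NOX-A12 mice, against 0.12, 0.01 and -0.41 in untreated mice. The groups then overlapped, with 6 genes higher and 3 lower and a median of 0.31, or -0.06 without untreated mouse 3.

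Cells that carry Il1r1 or make Il18 had markers on the lower side. The differences of all 12 stromal reticular genes were negative (median -0.50), and their summed intensity ran from 8590 to 9863 in NOX-A12 and from 10747 to 12995 in untreated marrow. The 10 endothelial genes were likewise all lower (median -0.47), with sums from 872 to 900 in NOX-A12 and from 1077 to 1372 in untreated marrow. Among 12 resident macrophage genes, 11 were lower (median -0.31), with sums from 4937 to 5586 in NOX-A12 and from 5472 to 6794 in untreated marrow. Without untreated mouse 3 these medians were -0.38 for stromal, -0.36 for endothelial and -0.21 for macrophage genes, and none of the genes of the 3 lists was near background. In the whole-array limma fit 0 genes of these 5 marker lists passed an adjusted p of 0.05, while an unadjusted p under 0.05 was reached by 1 neutrophil, 4 monocyte, 9 stromal, 6 endothelial and 4 macrophage genes, against 5.29% of all 18193 genes by their brightest probe set. The 5 marker lists were chosen with earlier results of these data known, so nothing is read from these counts. The part of these cell types in the differences of Il1r2, Il1b, Il1a, Il18 and Il1r1 was not tested.

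**Figure D4:**
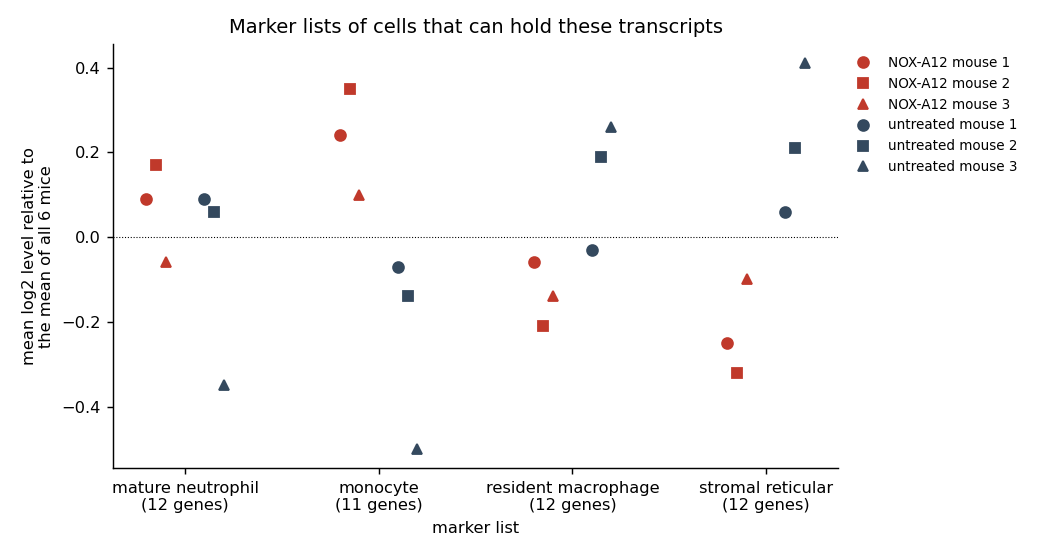
Mean log2 level of 4 marker lists in each mouse, relative to the mean of all 6 mice (NOX-A12 red, untreated dark, marker shape by mouse number). Mature neutrophil levels overlap between groups, from -0.06 to 0.17 in NOX-A12 and from -0.35 to 0.09 in untreated mice, stromal and macrophage levels are lower in all NOX-A12 mice, with macrophage groups close (-0.06 in NOX-A12 mouse 1, -0.03 in untreated mouse 1), and monocyte levels are higher in all NOX-A12 mice but overlap once Cd14 and Vcan are left out.

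The remaining genes of the pathway were grouped into 4 lists, and 0 members of any list passed an adjusted p of 0.05 in the whole-array limma fit. At an unadjusted limma p under 0.05 stood 2 members of the wider family list, 0 of the signalling list, 4 of the inflammasome list and 1 of the induced genes, against 5.29% of all genes by their brightest probe set. Groups without overlap were found at 3 members of the wider family list, 1 of the signalling list, 4 of the inflammasome list and 1 of the induced genes, against 10.6% of all genes, and nothing is called particular to the lists from these counts. Of 9 measured ligands and receptors of the wider interleukin-1 family, 4 were higher and 5 lower, with a median of -0.03. Il18r1 and Il18rap, which together form the receptor for interleukin-18, were 2 of the 3 members whose groups did not overlap, and both were lower. Il18r1 gave 373, 341 and 341 in NOX-A12 marrow, against 387, 489.5 and 467 in untreated marrow, a difference of -0.33 ± 0.11 (SE). Il18rap gave 785, 859 and 879 in NOX-A12 marrow, against 886, 1017 and 907 in untreated marrow, a difference of -0.15 ± 0.10 (SE). Of 7 measured T and natural killer markers, 6 were lower and 1 higher, with a median of -0.34. The part of these cells in the differences of Il18r1 and Il18rap was not tested. Sigirr, an inhibitory receptor of the family, gave 0.18 ± 0.13 (SE) with overlapping groups. The dim Il1rapl2 gave 0.28 ± 0.11 (SE), from means of 9.04 in NOX-A12 and 4.76 in untreated marrow.

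Genes that relay the receptor's signal lay close to zero. Of 17 measured, 7 were higher and 10 lower, with a median of -0.01. Traf6, the ubiquitin ligase downstream of the receptor complex, was the 1 member whose groups did not overlap, at 108, 103 and 104 in NOX-A12 against 108.4, 133 and 131 in untreated marrow, a difference of -0.21 ± 0.10 (SE). The separation from untreated mouse 1 was under 1 intensity unit. Nfkbia, the inhibitor of NF-kB and itself induced by it, gave -0.11 ± 0.24 (SE), the TAK1 adaptor gene Tab2 -0.00 ± 0.10 (SE), and Rela, a subunit of NF-kB, -0.06 ± 0.10 (SE). Tollip, an adaptor that restrains the pathway, gave -0.10 ± 0.09 (SE), and Irak3, an inhibitory kinase-like protein gene of myeloid cells, gave 0.11 ± 0.10 (SE).

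Other inflammasome genes were split, with 11 of 21 higher and 10 lower and a median of 0.02. The groups of 4 members did not overlap, 1 higher and 3 lower, against 10.6% of all genes without overlap. Nlrx1, a mitochondrial member of the NLR family, gave 328, 317 and 322 in NOX-A12 marrow, against 271, 278 and 282 in untreated marrow. Its groups were tight and apart, with a difference of 0.21 ± 0.08 (SE). Casp4, the mouse caspase-11 gene, which senses cytosolic lipopolysaccharide, gave 308, 264 and 336 in NOX-A12 against 353, 433 and 352 in untreated marrow, a difference of -0.31 ± 0.13 (SE). Casp12, a related caspase gene, was dim and gave -0.34 ± 0.11 (SE). The brightest members overlapped between groups: Txnip, a thioredoxin-binding protein gene, gave -0.08 ± 0.11 (SE), the NLRP3 cofactor gene Nek7 0.06 ± 0.14 (SE) and the protease gene Casp8 0.05 ± 0.11 (SE).

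Genes known to be induced by interleukin-1 did not share a direction. Of 26 measured, 15 were higher and 11 lower, with a median of 0.03, and 6 averaged under an intensity of 16, among them Csf3, the gene of granulocyte colony-stimulating factor. Lcn2, an iron-sequestering protein gene of neutrophils, gave 0.06 ± 0.10 (SE), the adhesion gene Vcam1, also on the stromal list, -0.02 ± 0.09 (SE), and Birc3, a regulator of cell death, 0.04 ± 0.12 (SE). Csf1, the macrophage growth factor gene, averaged 251 ± 47.4 in NOX-A12 and 202 ± 3.14 in untreated marrow (SD, n = 3 each), with a difference of 0.28 ± 0.14 (SE) and overlapping groups. Il6 gave -0.26 ± 0.14 (SE), also with overlap. Csf2, near background at 3.81 in NOX-A12 and 10.1 in untreated marrow, gave -0.38 ± 0.16 (SE), the 1 member of this list whose groups did not overlap.

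**Figure D5:**
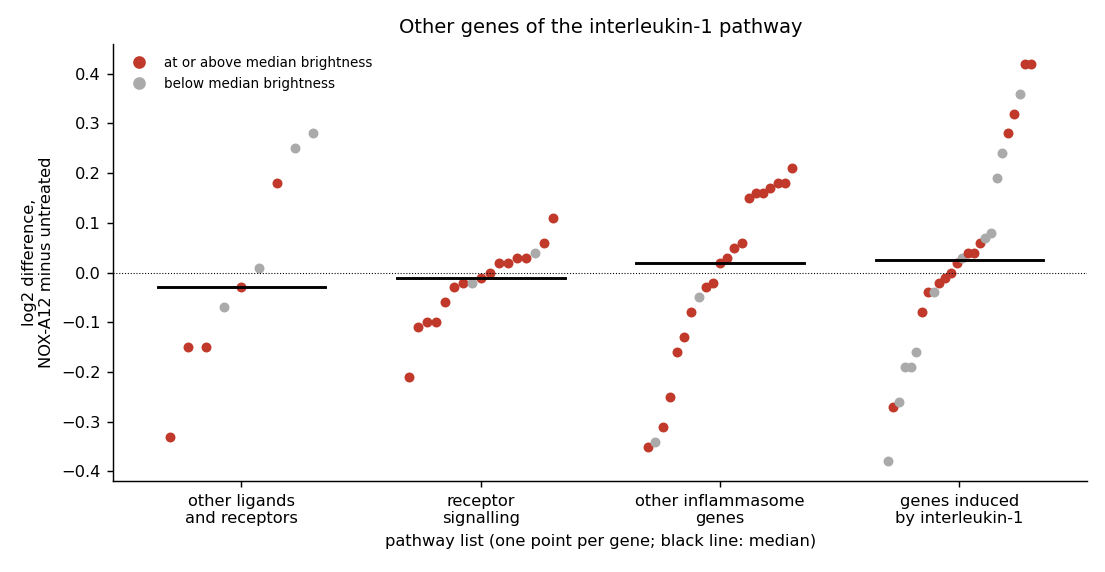
Log2 difference (vertical axis) of each measured gene in the 4 pathway lists, with a black line at the median; red marks genes at or above the median brightness of the array, grey those below it. The medians lie between -0.03 and 0.03, and the members of each list fall on both sides of zero.

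The genes whose level ran most like that of Il1r2 over the 6 mice were Enpep, Crispld2 and Pax3. They came from 10540 other genes at or above median brightness, with symbols of clones, predicted genes and pseudogenes left out. Likeness was measured by the root mean square difference of log2 values centred on each gene's mean. That difference was 0.10 for Enpep, 0.139 for Crispld2 and 0.140 for Pax3, where Il1r2 itself varied by 0.346 about its mean. Enpep, an aminopeptidase gene, gave 413, 499 and 532 in NOX-A12 marrow, against 364, 303 and 349.6 in untreated marrow. For Il1b the nearest were Txn2 at 0.078, Marf1 at 0.081 and Agap3 at 0.097, where Il1b varied by 0.315. Txn2, which encodes mitochondrial thioredoxin, gave 1090.0, 876 and 914 in NOX-A12 marrow, against 945, 578 and 818 in untreated marrow. Only the brightest probe set of each gene was compared, and Crispld2, Pax3, Txn2, Marf1 and Agap3 have others that were not. Pax3 was dim, at 31.3 to 77.7 over the mice. Likeness over 6 arrays that share a normalization is a description of these arrays.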

How the data were processed

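Marrow RNA of each of the 6 SCID/Bg mice was labelled with biotin for its own array, per the labels' protocols. Sample titles gave the group and the number of each mouse. Whether mice were handled in batches is not stated. The authors' deposited probe-set intensity values were used, which are linear, already summarised, and run from 0.66 to 16790. The sources used here name neither their software nor their normalization. Array medians of log2 values lay within 0.0193, so the values were used as deposited.

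By the platform's annotation 34945 probe sets had 1 symbol, 932 several and 9160 none. A gene is represented by its probe set of highest mean intensity, and all others of the 9 genes are also given. The fit of log2(intensity + 16) was made over all 45037 probe sets with limma (version 3.58.1, R version 4.3.3; lmFit, eBayes, NOX-A12 against untreated, two-sided, Benjamini-Hochberg, threshold 0.05) and tested on simulated data. From each pathway list the 3 brightest members and the 3 with the smallest unadjusted p are named. Csf3, Cxcr2, Clec4d, Cd14, Vcan, S100a8, S100a9, Ngp, Camp, Hba-a1, Cd3d and Cd3e were named after their values were seen. The 9 genes and all lists were chosen with earlier results of these data known. Of the other marker lists, the median difference was -0.32 for B lineage, -0.34 for T and natural killer, -0.06 for mast cell, basophil and eosinophil, 0.02 for erythroid, -0.14 for megakaryocyte and 0.04 for skeletal muscle genes. Alternatives covered the normalization (quantile, median centring), the offset (1 or 64), dim probe sets, the variance model, weights for arrays, the mouse number as a block, the probe set of a gene, the threshold, and each mouse left out. Motifs were searched in RefSeq promoter windows. The order of genes on a chromosome came from the RefSeq annotation, and no coordinates of genes are printed.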

Additional observations from a re-analysis of the deposited data

How the results depend on the processing

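With 3 mice a group and dim probe sets for Il1a and for parts of Il1r1 and Il1rap, small differences could not be resolved, and no alternative brought any of the 16 probe sets, or any on the array, past an adjusted limma p of 0.05. At an unadjusted p under 0.05 there were 3 of the 16 and 2240 of all. The median over the 9 genes, -0.06 with all mice, had no stable sign: it was 0.04 with dim probe sets left out, 0.02 with the mean of all probe sets of a gene, and from -0.03 to 0.03 with each mouse left out. Leaving out each mouse moved the median of the signalling list between -0.05 and 0.04, that of the induced genes between -0.04 and 0.08, that of the wider family between -0.06 and 0.02 and that of the inflammasome list between -0.01 and 0.03. The wider family gave -0.15 without dim probe sets. The median of the monocyte genes was 0.31 with and without Cd14 and Vcan, an alternative chosen after seeing the data. Among 143 recomputed values of the 9 genes, 5 changed sign, all of Il1rn or Il1r1, and 3 moved by over 1 SD: Il1a with each offset, and Il1rap with the mean of all its probe sets. These moves with dim probe sets follow from the offset and from which probe sets enter; the cause of the others was not tested. Mouse numbers name separate animals, and same-numbered mice did not deviate together (correlations of -0.177, 0.0921 and 0.0435 for numbers 1, 2 and 3). With the number as a block, 0 probe sets passed and the median over the 9 genes was -0.06.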

Other observations

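Several genes that interleukin-1 is known to induce varied more among mice of one group than between groups; they were picked after their values were seen. Ptgs2, the gene of inducible cyclooxygenase, gave 107, 30.4 and 7.72 in NOX-A12 mice 1, 2 and 3, against 67.1, 18.0 and 6.93 in untreated mice 1, 2 and 3. The chemokine gene Cxcl2 gave 169.95, 57.3 and 11.2 in NOX-A12 marrow, against 50.2, 45.2 and 22.1 in untreated marrow, and Ccl3, another chemokine gene, gave 171, 144 and 67.8 in NOX-A12 marrow, against 181, 70.6 and 44.5 in untreated marrow. In each of these genes mouse 1 was the highest of its group in both groups, as it was for Il1b and Nlrp3. That held for 5 of the 26 measured induced genes and 2 of the 9 interleukin-1 genes, beside 11.6% of all genes. Nothing is read from these counts, as the pattern was counted after it was seen. Across probe sets at or above median brightness, the mice numbered 1 did not deviate together (correlation of -0.177). Whether they have anything in common is not stated, and the part of handling or of the animals was not tested.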
